A study of Mus musculus with 2 samples.

Results

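The variable segments of the T cell receptor (TCR) alpha chain were taken as every gene of the count tables whose symbol starts with Trav, which gave 128 of the 48321 genes listed. They fall into 23 families by the number that follows Trav, and into 3 classes by the letter that follows that number, with 55 members carrying no letter, 39 carrying d and 34 carrying n. RNA came from sorted CD4- mature thymocytes of *MHC-II0:CD8ab Tg* mice on the C57Bl/6 background, in 2 libraries of 1 genotype, and no wild-type library was analysed here. These mice lack the I-A beta chain of MHC class II and carry the *Cd8 Δab* allele on both chromosomes, so that endogenous CD8 alpha and beta chains are not made. Both chains come instead from cDNAs in the *Rosa26* locus (*Rosa26 8a/8b*), switched on by *Cd4-Cre*, which acts in thymocytes from the double-positive stage and therefore also in all later alpha beta T cells. The sample titles call the cells CD4-CD8- and the cell type field calls them CD8+, and neither the ages nor the number of mice behind each library are given. The single-end reads were 50 bases long, and the counts were of reads that aligned to 1 place only.

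In a developing thymocyte 1 *Trav* segment is joined to 1 *Traj* segment, and the joined exon is spliced to the constant gene *Trac* to give the alpha chain that pairs with the beta chain. Early joins tend to use V segments near the J cluster, and later rounds on the same chromosome reach outwards to more distant ones. In the C57Bl/6 mouse a large part of the V cluster is present as repeated copies, and the letters d and n name members of the repeated stretches after their counterparts without a letter. Some alpha chains are nearly invariant: that of iNKT cells, which see lipids on CD1d, joins *Trav11* or its copy to *Traj18*, and that of MAIT cells, which see vitamin B metabolites on MR1, joins *Trav1* to *Traj33*.

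All 128 members lie on the plus strand of chromosome 14, between *Trav1*, the member farthest from *Trac*, and *Trav23*, the nearest, at chr14:52427928-53977678 of GRCm38 (mm10). Their annotated exons cover 155 to 595 bases with a median of 359, and 108 are annotated as V genes and 20 as V pseudogenes. A read counts for a member only if its 50 bases occur nowhere else, so each stretch of 50 bases in the members' transcripts was looked up in the transcripts of every other gene, on both strands. Of 42486 such stretches (called windows below), 15837 were found in no other gene, 37.3% of all. No unshared window was left for 42 members, and 39 of these carried d or n.

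The 3 sets of copies printed here show what a 50-base read can and cannot separate. Each is given 5′ to 3′ over the last 200 bases of the V exon, with the bases that differ within the set in capitals. In the first set *Trav6-6* (chr14:53517167-53517366) and *Trav6d-6* (chr14:52822160-52822359) were the same at every base, while *Trav6n-6* (chr14:53132938-53133137) differed from both at 4, all on the plus strand.
Trav6-6: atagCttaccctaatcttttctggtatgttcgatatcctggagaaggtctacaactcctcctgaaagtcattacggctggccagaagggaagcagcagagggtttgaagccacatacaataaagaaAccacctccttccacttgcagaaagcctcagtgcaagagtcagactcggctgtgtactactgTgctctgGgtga
Trav6d-6: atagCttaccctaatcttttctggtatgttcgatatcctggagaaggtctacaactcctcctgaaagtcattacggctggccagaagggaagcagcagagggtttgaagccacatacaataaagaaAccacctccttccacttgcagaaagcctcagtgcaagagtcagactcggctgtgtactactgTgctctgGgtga
Trav6n-6: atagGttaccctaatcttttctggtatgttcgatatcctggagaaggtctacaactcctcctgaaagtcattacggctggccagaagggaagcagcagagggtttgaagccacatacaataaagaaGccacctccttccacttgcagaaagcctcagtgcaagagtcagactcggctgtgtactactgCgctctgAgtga

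The second set holds the V segments of the iNKT alpha chain, *Trav11* (chr14:53519659-53519858) and *Trav11d* (chr14:52824713-52824912), which were again the same, and the pseudogene *Trav11n* (chr14:53135478-53135677), which differed from them at 4 of these bases.
Trav11: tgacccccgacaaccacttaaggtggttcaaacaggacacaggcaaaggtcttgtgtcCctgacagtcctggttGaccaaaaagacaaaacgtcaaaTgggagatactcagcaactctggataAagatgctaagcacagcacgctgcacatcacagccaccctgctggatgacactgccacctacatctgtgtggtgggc
Trav11d: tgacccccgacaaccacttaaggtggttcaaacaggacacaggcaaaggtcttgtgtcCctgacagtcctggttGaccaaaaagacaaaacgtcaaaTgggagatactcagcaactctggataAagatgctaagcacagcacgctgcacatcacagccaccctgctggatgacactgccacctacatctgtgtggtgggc
Trav11n: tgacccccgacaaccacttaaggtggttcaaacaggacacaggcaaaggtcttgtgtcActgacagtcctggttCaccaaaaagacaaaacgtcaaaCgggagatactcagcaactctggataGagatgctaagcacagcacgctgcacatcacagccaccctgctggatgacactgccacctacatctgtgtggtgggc

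In the last set, shown because all of its copies can be counted, *Trav16* (chr14:53743506-53743705) differed from *Trav16d-dv11* (chr14:53047622-53047821) at 4 bases and from *Trav16n* (chr14:53351422-53351621) at 3. Over 353 bases aligned without gaps it differed from *Trav16d-dv11* at 28 and from *Trav16n* at 5, so most differences from *Trav16d-dv11* lie outside the printed stretch.
Trav16: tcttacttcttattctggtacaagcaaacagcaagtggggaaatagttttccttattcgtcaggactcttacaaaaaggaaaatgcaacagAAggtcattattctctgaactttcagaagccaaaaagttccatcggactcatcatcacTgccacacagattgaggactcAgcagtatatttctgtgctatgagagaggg
Trav16d-dv11: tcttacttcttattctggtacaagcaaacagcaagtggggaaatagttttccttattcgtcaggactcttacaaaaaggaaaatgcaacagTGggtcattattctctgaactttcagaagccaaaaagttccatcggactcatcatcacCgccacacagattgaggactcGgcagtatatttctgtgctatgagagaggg
Trav16n: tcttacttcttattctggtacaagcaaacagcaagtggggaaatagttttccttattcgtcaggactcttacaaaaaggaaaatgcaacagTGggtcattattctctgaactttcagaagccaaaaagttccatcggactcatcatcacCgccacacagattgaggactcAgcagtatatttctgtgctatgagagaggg

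The gene counts summed to 16732644 in replicate 1 and 16245849 in replicate 2. *Xist*, which is transcribed from the inactive X chromosome, had 34 and 25266 counts, and the Y-linked gene *Ddx3y* had 2450 and 0, so the libraries differed in the sex of the mice, and sex and replicate cannot be told apart in any difference between them. Genes listed for mature CD8-lineage T cells (*Cd3e*, *Trac*, *Cd8a*, *Cd8b1*, *Ccr7*, *S1pr1*) summed to 2370 and 2177 counts per 1000000 gene counts (CPM). Of these, *Cd8a* had 158 and 171 CPM and *Cd8b1* 775 and 786. Both CD8 proteins come from the *Rosa26* cDNAs in these mice, so these 2 genes are not taken to mark the lineage here. Per the paper, the mutant *Cd8* allele lacks exon 2 of *Cd8b1* and exon 1 of *Cd8a*. Whether RNA from its other exons adds to these counts was not tested. *S1pr1* had 318 CPM in replicate 1 and 227 in replicate 2, *Ccr7* 277 and 225, *Cd3e* 408 and 368, and *Trac* 434 and 400. The 6 double-positive thymocyte markers summed to 16.6 and 18.5 CPM, of which *Dntt* alone gave 13.4 and 13.0. The 5 listed gamma delta markers summed to 53.8 and 50.9 CPM. Among B cell markers *Ms4a1* had 8 and 5 counts and *Cd79a* 21 and 15, while *Ighm* had 133 and 136 CPM. The 3 erythroid markers were at 0, and the myeloid, dendritic and thymic epithelial lists summed to between 0.598 and 15.9 CPM. Their part in the *Trav* counts was not tested.

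*Trav* counts summed to 2269 in replicate 1 and 2148 in replicate 2. That is 135.6 CPM (95% Wilson interval 130.1 to 141.3) and 132.2 CPM (126.7 to 137.9), and both libraries lay close together at 134 ± 2.39 CPM (SD, n = 2). Intervals here and below cover counting error only. In bulk RNA, fewer cells that use a segment and less RNA of that segment per cell cannot be told apart.

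A count in both libraries was found for 71 of the 128 members, 49 were at 0 in both, and 8 had counts in 1 library only. Those 8 were low, from 1 count up to the 0 and 7 counts of *Trav6n-5*. A member with 0 counts may still hold a share of up to 0.132% of the *Trav* counts in replicate 1 and up to 0.140% in replicate 2, which is what 3 counts would give, and for a member with no unshared window even this limit does not apply. It also says little about the use of 4 members at 0 with few unshared windows: *Trav12n-3* with 1, *Trav6d-3* with 7, and *Trav5d-3* and *Trav5n-3* with 10 each.

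Counts can come only from unshared sequence, so a member without any is set to 0 by the counting rule. Of the 42 members with no window of their own, 40 were at 0 in both libraries. The other 2, *Trav13d-3* with 15 and 7 counts and *Trav13n-3* with 6 and 12, lie with all of their 391 and 337 exon bases opposite the antisense genes *Gm30214* and *Gm43650*. When those antisense genes were left out of the search, a choice made after seeing the data, *Trav13d-3* had 6 windows of its own and *Trav13n-3* had 50. Reads from a gene and its antisense partner cannot be told apart without strand, and the strand setting of the counting was not given in the sources used here. At the other end, all 64 V genes with at least 50 unshared windows were counted, 62 of them in both libraries. The exceptions were *Trav23*, with 1 and 0 counts, and *Trav9d-4*, with 0 and 1. Over all 128 members the rank correlation of summed counts with unshared windows was 0.77, which includes the zeros set by the counting rule. Over the 77 members with at least 50 such windows it was 0.34. Both are descriptions across genes that share sequence.

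**Figure D1:**
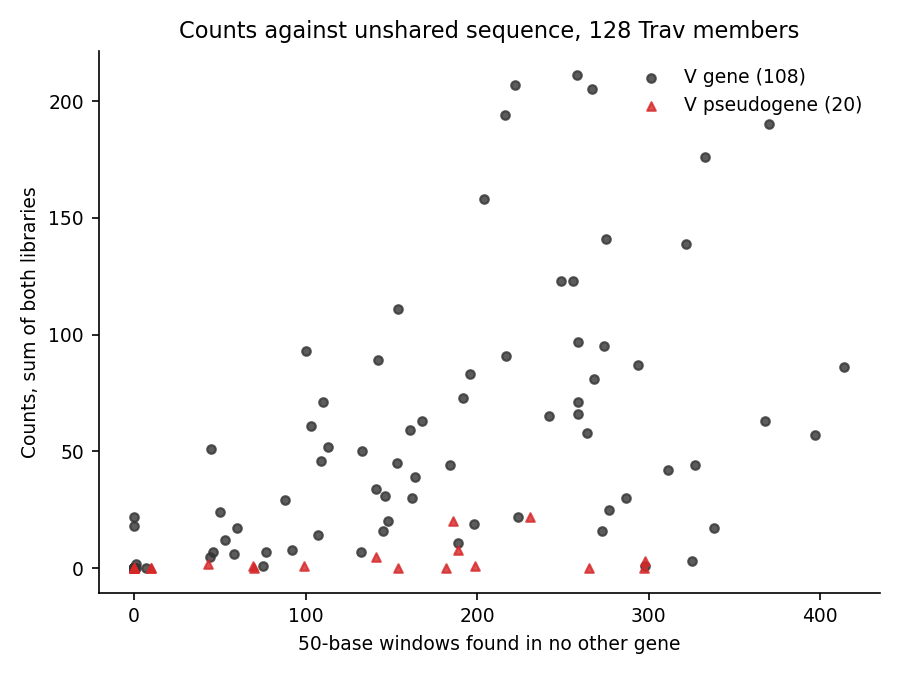
Each point is 1 of the 128 *Trav* members, with its number of unshared 50-base windows on the x axis and its counts summed over both libraries on the y axis, and circles and triangles separate the 108 V genes from the 20 pseudogenes. Points at 0 windows sit at 0 counts apart from *Trav13d-3* and *Trav13n-3*, while V genes with 200 or more windows spread from near 0 to over 200 counts.

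*Trav8n-2* had the highest mean share of the *Trav* counts, with 106 counts in replicate 1 and 105 in replicate 2, or 4.78% ± 0.15 (SD, n = 2). *Trav3-3* followed with 106 and 101 counts, 4.69% ± 0.02. *Trav12-2*, of the family that antibodies detect as V alpha 8, had 107 and 98 counts, 4.64% ± 0.11. These leading members differed from each other by less than their Wilson intervals, which ran from 3.76% to 5.88% across them, so their order was not resolved at this depth. *Trav6n-6* had 97 counts in each library, 4.40% ± 0.17, and is the one countable copy of the first set printed above. *Trav1*, the MAIT segment at the far end of the locus, had 93 and 97 counts, 4.31% ± 0.29. *Trav14-1*, of the family detected as V alpha 2, had 95 and 81 counts, 3.98% ± 0.29. All 6 had overlapping intervals, and no V segment took as much as 5% of the *Trav* counts in either library.

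*Trav16n* had 71 and 87 counts, 3.59% ± 0.65, the widest spread of the 10 leading members. *Trav4-3* with 73 and 68 counts (3.19% ± 0.04) and *Trav13n-4* with 70 and 69 (3.15% ± 0.09) were nearly equal. *Trav14d-3-dv8*, whose name marks a segment that can also join in the delta chain, had 61 and 62 counts, 2.79% ± 0.14. The 10 held 38.7% of *Trav* counts in replicate 1 and 40.3% in replicate 2. Counts were spread widely beyond them: 15 members were needed to reach 50% of the counts and 44 to reach 90%. The inverse Simpson index, the number of equally used members that would give the same evenness, was 39.6 and 39.4.

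Because a raw count grows with the sequence that can be counted, the members with at least 50 unshared windows were also ranked by counts per 100 such windows. On that scale *Trav3-3* led these members with 46.6 ± 1.59, ahead of *Trav7-4* with 46.5 ± 6.36, whose 51 and 42 counts fell on only 100 unshared windows. *Trav6n-6* had 44.9, the same in both libraries, *Trav8n-2* 40.9 ± 0.27, *Trav16n* 38.7 ± 5.55 and *Trav12-2* 38.4 ± 2.38. *Trav6-3*, left out with its 45 unshared windows, had 56.7 ± 23.6 from 33 and 18 counts. Only 5 of the 10 members that led by share were among the 10 that led per window. *Trav1*, all of whose 370 windows are unshared, had 25.7 ± 0.76, and the median of the 64 V genes was 13.9, with a range from 0.168 for *Trav23* to 46.6.

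**Figure D2:**
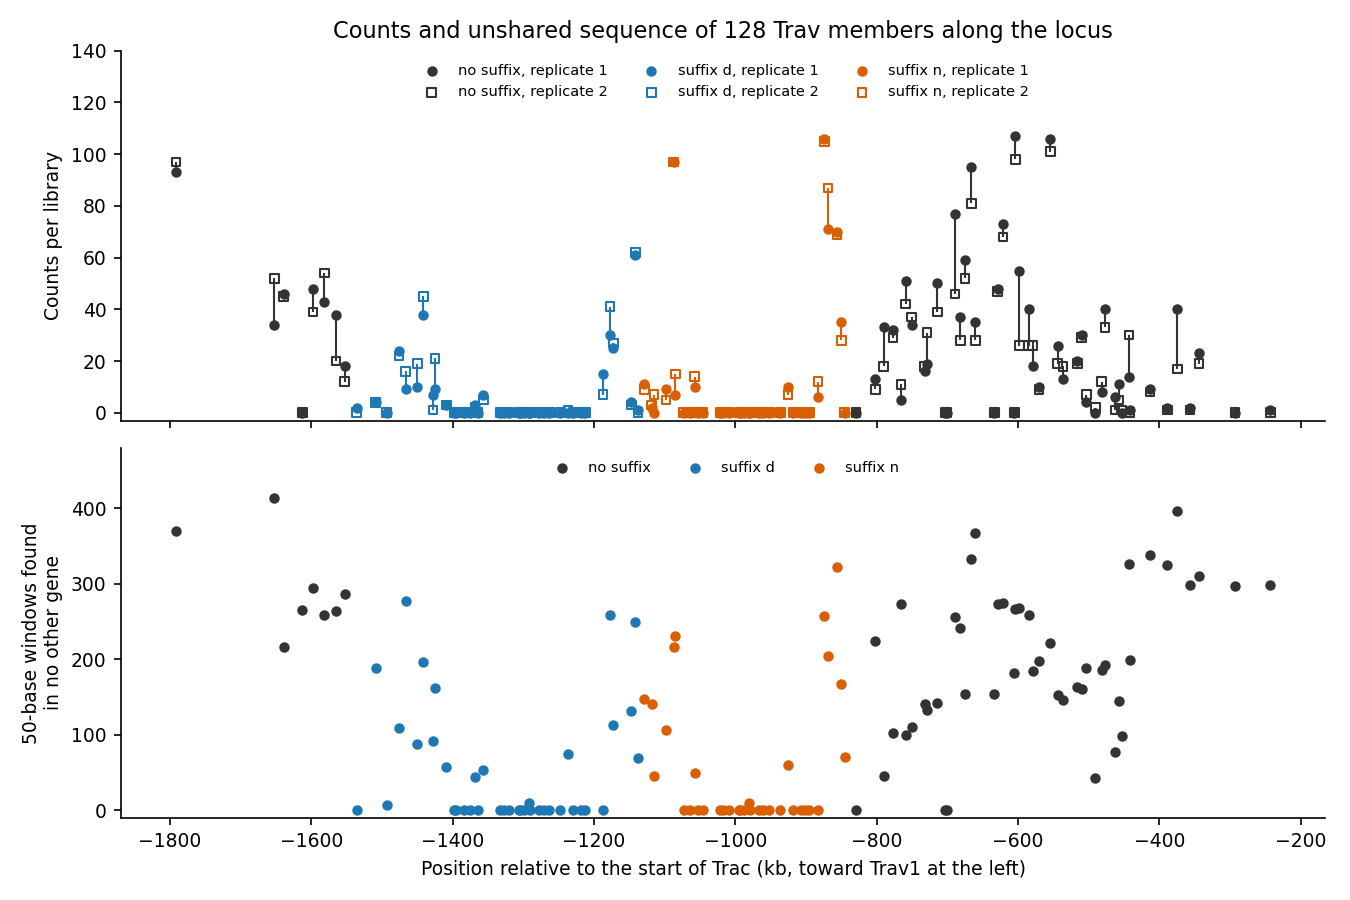
The upper panel plots counts per library (filled circles, replicate 1, and open squares, replicate 2, joined by a line) and the lower panel the number of unshared 50-base windows, for each *Trav* member by its distance from the start of *Trac* in kb, with *Trav1* at the left and colours for no suffix, d and n. The stretches of d and n members hold many points at 0 in both panels, and members with over 60 counts occur among the far members without a letter, the d, the n and the near members.

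By family, *Trav6* had the largest mean share, with 263 and 296 counts or 12.7% ± 1.55 (SD, n = 2). Its counts came from 10 of its 15 members, led by *Trav6n-6* (34.7% of the family), with *Trav6-1* next at 43 and 54. *Trav6-7-dv9* had 30 and 29 counts, *Trav6-3* 33 and 18, *Trav6-5* 19 and 31, *Trav6-2* 18 and 12, and *Trav6d-5* 9 and 21. *Trav6d-4*, *Trav6-4* and *Trav6n-5* had between 0 and 16 counts per library, and *Trav6-6*, *Trav6d-6*, *Trav6d-3*, *Trav6d-7* and *Trav6n-7* were at 0 in both.

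*Trav8* came next with 216 and 240 counts, 10.3% ± 1.17, although it has only 5 members. All 5 were counted: beside *Trav8n-2*, *Trav8d-1* had 38 and 45 counts, *Trav8-1* 34 and 37, *Trav8d-2* 30 and 41, and the pseudogene *Trav8-2* 8 and 12. Per 100 unshared windows the family had 22.6 ± 1.68 counts.

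*Trav7*, with 13 members, had 249 and 194 counts, with Wilson intervals of 9.75% to 12.3% in replicate 1 and 7.89% to 10.3% in replicate 2. *Trav7-5* had 77 and 46 of them and *Trav7-4* 51 and 42, while *Trav7-1* had 38 and 20, *Trav7-3* 32 and 29 and *Trav7d-3* 24 and 22. *Trav7d-4*, *Trav7n-4*, *Trav7-6* and *Trav7d-2* had between 0 and 19 counts per library, and *Trav7-2*, *Trav7d-5*, *Trav7n-5* and *Trav7n-6* were at 0 in both. Only 30.0% of the windows of this family were unshared. Each member with at least 50 unshared windows was scaled by their number, and these rates were summed by family, as shares of their total. On that scale *Trav7* led all families with 14.8% against 11.5% for *Trav6*, though such a sum grows with the number of countable members. A minimum of 40 windows, a choice made after seeing the data, adds *Trav6-3*. The order then turned, with 16.4% for *Trav6* and 13.9% for *Trav7*. Pooled over all unshared windows of a family, *Trav7* had 17.6 ± 3.09 counts per 100 and did not lead. *Trav16* led with 27.8 ± 1.53 on this pooled scale, followed by *Trav1* with 25.7 ± 0.76 and *Trav8* with 22.6 ± 1.68.

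*Trav14* had 220 and 202 counts, 9.55% ± 0.21, the smallest spread of the 4 leading families. Its counts came from *Trav14-1*, *Trav14d-3-dv8*, *Trav14n-3* (35 and 28), *Trav14-2* (18 and 26) and *Trav14-3* (11 and 5), with the d and n copies of *Trav14-1* and *Trav14-2* at 0. The 4 families together held 42.6% of the *Trav* counts, and the shares of *Trav8*, *Trav7*, *Trav14* and *Trav13* (213 and 188 counts, 9.07% ± 0.45) had Wilson intervals that overlapped each other in each library.

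*Trav12* (200 and 152 counts, 7.95% ± 1.23), *Trav3* (166 and 176, 7.75% ± 0.62) and *Trav16* (136 and 147, 6.42% ± 0.60) brought the sum of the 8 leading families to 73.8%. The other 15 families ranged from *Trav9* with 109 and 96 counts to *Trav22*, a single pseudogene at 0 in both libraries. *Trav19* was the one family of the 23 whose Wilson intervals did not overlap between the libraries, with 1.76% (1.30% to 2.39%) in replicate 1 and 0.791% (0.495% to 1.26%) in replicate 2.

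**Figure D3:**
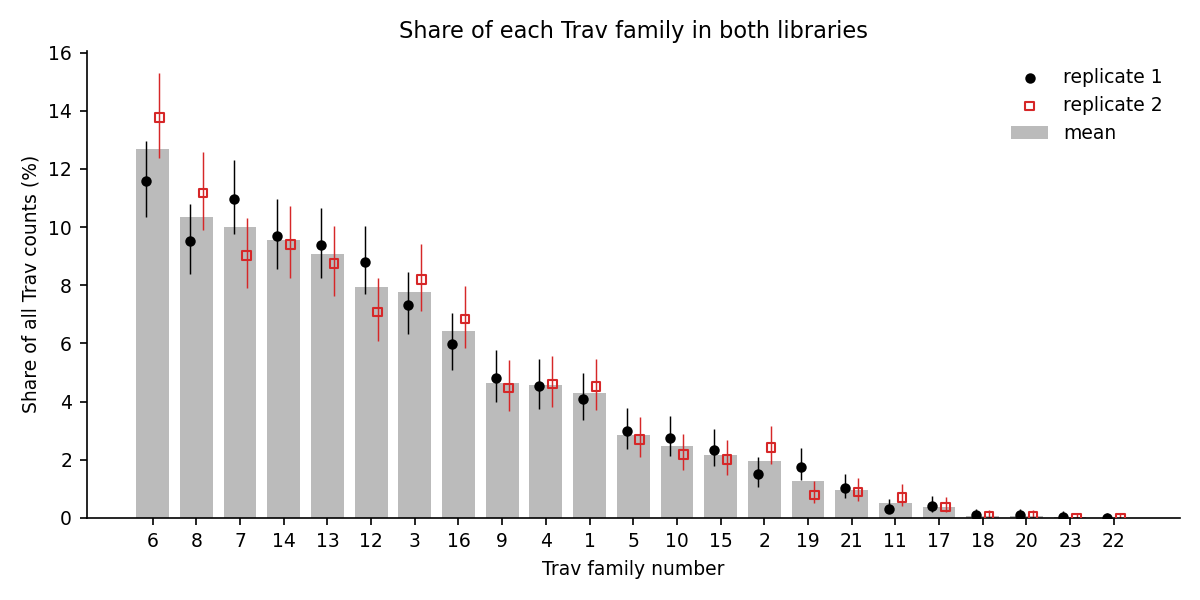
Grey bars give the mean share of all *Trav* counts (%) of each of the 23 families, ordered by that mean, with black circles for replicate 1, red squares for replicate 2 and lines for each library's 95% Wilson interval. *Trav6* stands first at 12.7%, 8 families exceed 6%, and *Trav19* is the family whose points stand apart.

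Members without a letter held 67.7% ± 2.88 of the *Trav* counts (1583 and 1411 counts), those with n held 20.2% ± 1.55 (434 and 458) and those with d held 12.1% ± 1.33 (252 and 279). The classes differ in how much of their own sequence can be counted: 64.2% of the windows of members without a letter were unshared (11622 of 18114), 18.0% of those of n members (2032 of 11264) and 16.7% of those of d members (2183 of 13108), and the d and n classes have 20 and 19 members with none. Per 100 unshared windows the members with n had 21.9 ± 0.84 counts, those without a letter 12.9 ± 1.05 and those with d 12.2 ± 0.87. The medians over V genes with at least 50 unshared windows were 21.6 for n (9 members, 6.54 to 44.9), 13.1 for no letter (42 members, 0.168 to 46.6) and 11.3 for d (13 members, 0.667 to 24.7). The ranges of the 3 classes overlapped, and members are not replicates, so no test was made between them.

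The copies can be compared within the 40 sets of members that share a family and number and differ in the letter. Of these sets, 31 have 3 copies and 9 have 2. In 19 sets only 1 copy was counted, and this was the copy without a letter in 16, an n copy in 2 (*Trav6n-6* and *Trav11n*) and a d copy in 1 (*Trav7d-2*, with 2 and 0 counts). *Trav12-2*, *Trav3-3*, *Trav14-1* and *Trav4-3* are of this kind, and their d and n copies, at 0, have no window of their own, so that their reads could not have been counted. Of the 42 members without an unshared window, 34 were d or n copies that shared most windows with their n or d counterpart.

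In 15 sets every copy was counted, and there the copies often differed in level. For the last set printed above, *Trav16n* had 71 and 87 counts, *Trav16* 40 and 33, and *Trav16d-dv11* 25 and 27, on 204, 192 and 113 unshared windows. The Wilson interval of *Trav16n* lay above those of the other copies in both libraries, while those of *Trav16* and *Trav16d-dv11* overlapped. In the *Trav13-4* set, *Trav13n-4* had 70 and 69 counts while *Trav13-4-dv7* had 6 and 1 and *Trav13d-4* had 4 and 3. *Trav13n-4* has 322 unshared windows against 77 and 132 for its copies. In the *Trav14-3* set the d copy, *Trav14d-3-dv8*, led *Trav14n-3* and *Trav14-3*. Across the 36 sets with counts, the copy with the most counts had no letter in 25, d in 6 and n in 5, and in 1 of the 6 (*Trav15d-3*) a copy without a letter had the same sum. This tally includes the 19 sets with only 1 counted copy, which had no letter in 16 of them. The other copies of those 19 sets had 7 or fewer unshared windows, so there the leading copy was set by the counting rule. At least 2 copies were counted in 17 sets. *Trav3-2*, *Trav5-2*, *Trav5-3* and *Trav9-3* were the 4 sets with no counted copy.

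**Figure D4:**
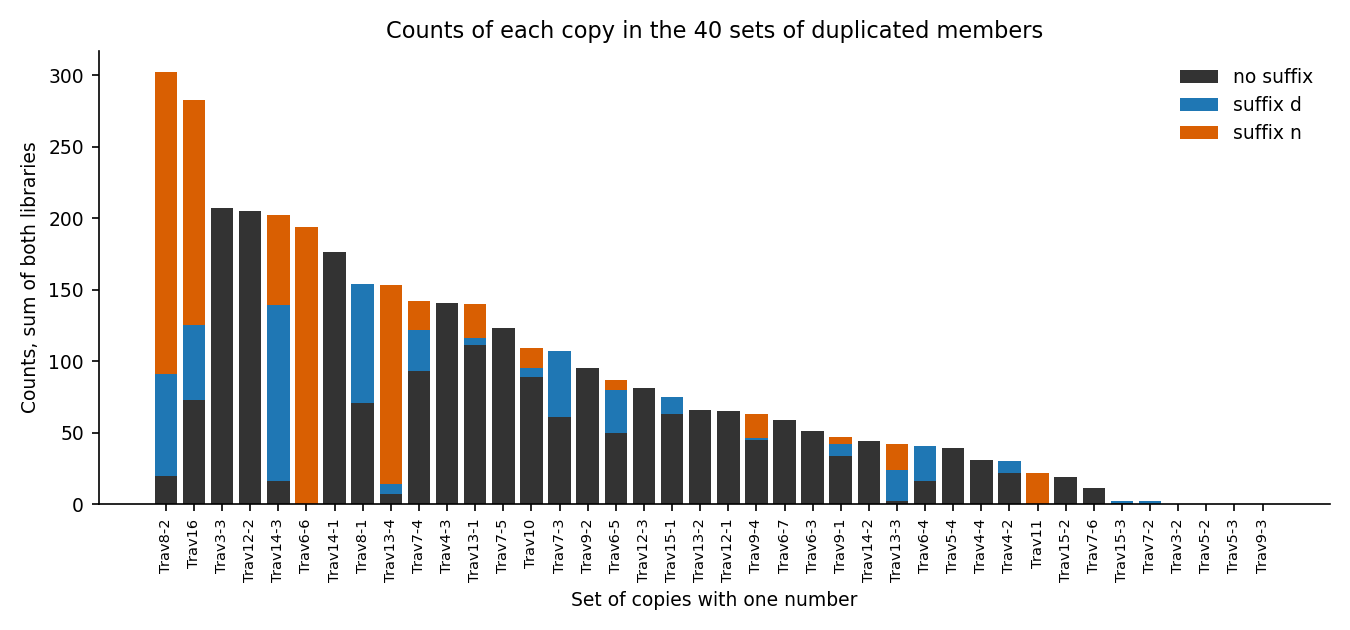
Each bar is 1 of the 40 sets of copies with the same family and number, its height is the counts summed over both libraries, and colours give the part of each copy (no suffix, d or n). In the tallest bar, the *Trav8-2* set, and in the *Trav6-6* set the n copy holds most or all counts, and 4 sets have none.

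Along the chromosome the members form 4 stretches. The 8 members from *Trav1* to *Trav6-2* (chr14:52427928-52667864) carry no letter and held 14.5% ± 0.53 of the counts. The 39 d members from *Trav7d-2* to *Trav15d-3* (chr14:52683964-53082520) held 12.1% ± 1.33, and the 34 n members from *Trav7n-4* to *Trav15n-3* (chr14:53091346-53375279) held 20.2% ± 1.55. The 47 members without a letter nearest to *Trac*, from *Trav7-2* to *Trav23* (chr14:53390635-53977678), held 53.3% ± 3.41, with 55.7% in replicate 1 and 50.8% in replicate 2. The part of each stretch's own windows that was unshared differed strongly, at 90.7%, 16.7%, 18.0% and 59.7%, in this order. Per 100 unshared windows the stretches at both ends had 13.5 ± 0.03 and 12.7 ± 1.31 counts, which differed by less than the spread of the latter.

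Divided by order into 3 groups, the 43 members nearest to *Trac* held 50.2% ± 2.82 of the counts, the 42 in the middle 27.4% ± 1.16 and the 43 farthest 22.4% ± 1.67. Per 100 unshared windows the middle group had 20.4 ± 0.07 counts, against 12.5 ± 1.19 in the near group and 12.4 ± 0.44 in the far group. All 34 n members, with 21.9 ± 0.84 on this scale, lie in the middle group, so position and letter class cannot be told apart there. At the far end *Trav1* was followed by *Trav2* with 34 and 52 counts, *Trav3-1* with 46 and 45, *Trav4-1*, a pseudogene, with 0 and 0, *Trav5-1* with 48 and 39, and *Trav6-1* with 43 and 54. At the near end counts were lower, with *Trav17* at 9 and 8, *Trav18* at 2 and 1, *Trav19* at 40 and 17, *Trav21-dv12* at 23 and 19, *Trav23* at 1 and 0, and the pseudogenes *Trav20* at 2 and 1 and *Trav22* at 0 and 0. These near members have 297 to 397 unshared windows each, so that little of their sequence was hidden from counting.

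The 20 members annotated as pseudogenes had 25 and 38 counts, or 1.44% ± 0.47 of the *Trav* counts. With 13 of them having at least 50 unshared windows, their median was 0.503 counts per 100 windows (range 0 to 5.38), against 13.9 for the 64 V genes (range 0.168 to 46.6). Only *Trav11n*, with 7 and 15 counts, and *Trav8-2*, with 8 and 12, had at least 10 counts in all. The 5 members at 0 in both libraries in spite of at least 50 unshared windows were pseudogenes without exception (*Trav3-2*, *Trav4-1*, *Trav5-2*, *Trav15n-3* and *Trav22*). The ranges overlapped between 0.168, the lowest V gene, and 5.38, the highest pseudogene. Several V genes lay in that overlap, among them *Trav17* with 2.51 and *Trav6-2* with 5.23.

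The 10 members with dv in their symbol can join in the delta chain as well. Of these, 9 were counted, with 210 counts in replicate 1 and 198 in replicate 2, or 9.24% ± 0.03 of the *Trav* counts. *Trav14d-3-dv8* and *Trav15-1-dv6-1* (35 and 28 counts) led them, and *Trav15d-2-dv6d-2*, without a window of its own, was at 0. The 6 *Trdv* genes had 39 counts in each library, and the delta constant gene *Trdc*, which lies between the *Trav* and *Traj* segments and is deleted when they join, had 89 and 116 counts.

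For the invariant alpha chains the data were uneven. *Trav11* and *Trav11d* were at 0 in both libraries, and with all 342 aligned bases the same and no window of their own, reads from either could not have been counted. Their level is therefore not measured here. The countable copy, *Trav11n*, differed from them at 8 of 342 bases and had 7 and 15 counts on 231 unshared windows. Its reading frame meets a stop at codon 46 of 114, through the change C138G (the base of *Trav11* first, then its position counted from the A of the start codon, then the base of *Trav11n*). *Traj18*, the J segment of the iNKT chain, had 50 and 41 counts, and *Traj33*, that of the MAIT chain, had 18 and 14. Both J segments also join to other V segments, so neither counts these cells.

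The libraries were then compared gene by gene with an exact two-sided binomial test on the counts, adjusted by Benjamini-Hochberg over all 15949 genes with at least 10 counts in all, and a gene was called when the adjusted p was under 0.05 and the fold at least 2. Such a test compares these libraries and not conditions. Its p-values allow for counting error only, and not for the spread between mice or between library preparations. Of the 62 members tested 2 were called, against 1.52% of all genes tested (242). *Trav12-3* (chr14:53621657-53622245) had 55 counts in replicate 1 and 26 in replicate 2, a log2 difference of -1.04 (exact binomial test, adjusted p = 0.0198). *Trav19* (chr14:53845234-53845827) had 40 and 17 counts, a log2 difference of -1.19 (exact binomial test, adjusted p = 0.0255). With a biological coefficient of variation of 0.1 assumed in edgeR's exact test, neither was called (adjusted p = 0.508 and 0.572), 4 members had an unadjusted p under 0.05, and 0.376% of all genes were called.

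For the other 60 tested members no difference was called, though counts as low as these leave wide limits. Of these, *Trav7-5* had the lowest adjusted p, with 77 and 46 counts (exact binomial test, adjusted p = 0.0529). Its log2 difference of -0.70 was also under 2-fold. *Trav3-4*, with 14 and 30 counts, exceeded 2-fold with a log2 difference of 1.14 (exact binomial test, adjusted p = 0.0784). The log2 differences of the 62 ran from -1.19 to 1.26 with a median of -0.05, and 34 were lower and 28 higher in replicate 2. Their median absolute difference was 0.35, against 0.17 over all genes tested, whose median summed count was 452 against 57.5 for the members. An unadjusted p under 0.05 was found for 7 of the 62 members (11.3%) and for 27.7% of all genes. A further 17 members had counts but fewer than 10 in all and were not tested. Over the 79 members with any count, shares in the libraries gave a Pearson correlation of 0.95 and a Spearman correlation of 0.93, as a description across genes.

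**Figure D5:**
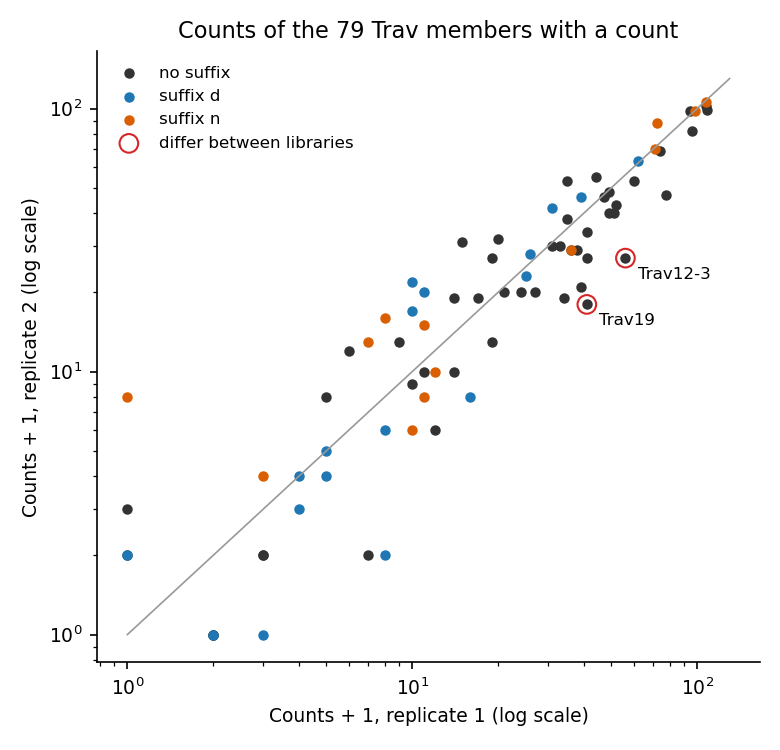
Counts plus 1 of the 79 *Trav* members with a count are plotted for replicate 1 (x) against replicate 2 (y) on log axes, with colours for no suffix, d and n, a grey line of equality and red rings on the members that differed between the libraries. *Trav12-3* and *Trav19* lie below the line, and the members with the most counts lie close to it.

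The other segments of the receptor were measured in the same libraries. The 35 *Trbv* genes, the V segments of the beta chain, had 8196 and 7902 counts, 488 ± 2.42 CPM, and 0 of 22 tested were called, with an unadjusted p under 0.05 in the exact binomial test for 8. The 60 *Traj* segments had 1175 and 1074 counts, with 1 of 46 called. *Trac* had 7260 and 6497 counts, so there were 0.313 and 0.331 *Trav* counts for each *Trac* count and 0.277 and 0.272 for each *Trbv* count. These ratios are of raw counts, uncorrected for length or for the shared sequence of the *Trav* members.

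In the list of 16 TCR genes 14 were tested and 0 were called in either direction, with an unadjusted p under 0.05 in the exact binomial test for 6. The CD3 chains that carry the receptor's signal were high, with 411 ± 6.44 CPM for *Cd3d*, 388 ± 28.1 for *Cd3e*, 589 ± 44.3 for *Cd3g* and 210.3 ± 0.62 for *Cd247*, and the beta constant genes *Trbc1* and *Trbc2* had 112 ± 4.95 and 261 ± 5.66. *Trac*, *Cd3e*, *Cd3g* and *Tcf12*, a transcription factor of thymocytes, had an adjusted p under 0.05 in the exact binomial test but log2 differences of only -0.15 to 0.21. Of the genes of the recombination machinery, *Rag1* and *Rag2* were low, with 8 and 19 counts and 4 and 1. *Dntt*, which adds bases at the joins, was higher, with 224 and 211 counts or 13.2 ± 0.28 CPM. *Ptcra*, the alpha chain stand-in of earlier thymocytes, had 2 counts in each library, and the genes of the ligands of invariant receptors, *Cd1d1* and *Mr1*, had 23.8 ± 2.33 and 14.2 ± 0.08 CPM.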

How the data were processed

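Poly(A) RNA was prepared with a NEBNext kit and sequenced on an Illumina HiSeq. Per the submitters' processing notes, the authors aligned reads with TopHat2 2.1.1 to mm10 (GRCm38) and counted them per gene with HTSeq 0.6.1. The deposited values are raw counts per gene and library; the annotation and strand setting were not given in the sources used here. Of uniquely aligned reads, 40.6% and 41.2% were on genes and 55.9% in each library on none, and 27736636 and 24451411 alignments were not unique. The lines that name no gene were left out. Here, CPM used the summed gene counts, shares used all *Trav* counts, and intervals are 95% Wilson intervals. Windows of 50 bases were searched in the GENCODE M21 transcripts, which held all 128 members. Genes with at least 10 summed counts were tested with Python 3.11.15 and scipy 1.17.1, after a check on simulated counts. Alternatives used edgeR 4.0.16, DESeq2 1.42.0, other filters and scaling per window. Replicates were numbered by their titles. Named were the 10 members with the largest share, those that differed between libraries, *Trav1*, *Trav11* and *Trav11d*, the members of the 4 largest families and of both ends of the locus, counted members without an unshared window, and a TCR gene list. Pseudogenes, sets of copies and *Trav16*, *Trav7-4* and *Trav9d-4* were named after their values were seen. The members and lists were chosen with earlier results of these data known. Some genes of the marker and TCR lists are not reported here.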

Additional observations from a re-analysis of the deposited data

Results flagged for a closer look

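A V segment of the same cluster that carries no *Trav* symbol in the tables, *B230359F08Rik* (chr14:53795357-53795963, listed in RefSeq as *Trav13-5*), had 13 counts in replicate 1 and 18 in replicate 2. It stood out because it lies outside the set of genes analysed above and exceeds the 3 counts that a count of 0 allows. With 360 of 377 windows unshared, its counts equal 0.573% and 0.838% of the *Trav* counts. A second such segment, *C920008G01Rik* (listed in RefSeq as *Trav7d-6*), was at 0 in both libraries and has no unshared window among 331.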

How the results depend on the processing

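No paired analysis was possible because both libraries belong to 1 group. Scaling by unshared windows moved the share of the 10 leading members from 39.5% to 36.1%, of members without a letter from 67.7% to 64.0%, of d members from 12.1% to 15.1%, of the members farthest from *Trac* from 22.4% to 20.3% and of those in the middle from 27.4% to 28.9%; it moved 14 of the 22 families other than *Trav6* by over 1 SD. With at least 40 rather than 50 such windows required of a member, a choice made after seeing the data, these were 36.1% for the 10 leading members, 14.6% for d, 19.5% for the farthest and 32.7% for the middle members, and *Trav6* had 16.4% rather than 12.7%. Within families that have more than 1 letter class, members without a letter held 64.5% and n members 22.2%. At least 10 counts in each library were found for 46 members rather than 71. In edgeR's exact test 0 of 62 members were called rather than 2 (4 had an unadjusted p under 0.05), with log2 differences of -1.03 and -1.19 for *Trav12-3* and *Trav19*. A minimum of 100 summed counts left both of these out before testing, so its 0 of 12 called (1 with an unadjusted p under 0.05) says nothing about them. With the *Trav* total as library size 3 were called (adding *Trav3-4*, 14 and 30 counts). The windows were searched in transcripts only, so the planned search without the genome gave no separate value. With 1 library left out only the other's value is left.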
